A study of Mus musculus with 6 samples.

Results

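The genes described here were 10 erythroid regulators and membrane genes in bone marrow LSK cells: *Klf1*, *Gata1*, *Zfpm1*, *Gfi1b*, *Nfe2*, *Tfrc*, *Car1*, *Car2*, *Ermap* and *Cldn13*. They were taken by symbol from the deposited expression table, which lists 54532 genes. Values are FPKM, fragments per kilobase of gene at a common depth, and each of the 10 was among the 11552 genes that reached a mean of 1 FPKM over the libraries and were tested. LSK cells, which lack lineage markers and carry Sca1 and c-Kit, are the marrow fraction that holds stem cells and multipotent progenitors. The question was what loss of *Myh9*, the gene of the non-muscle myosin IIA heavy chain, changes in them. The *Myh9*-deficient group (cKO) comprised 3 libraries of mice carrying *Myh9* fl/fl;*Mx1-cre*. The control group (CTRL) comprised 3 libraries of littermates with floxed *Myh9* and no cre. All mice were C57BL/6 and genotyped at 4 to 5 weeks of age. Both groups were injected with poly I:C, an inducer of interferon that switches on *Mx1-cre*, at 5 mg/kg, and 100000 LSK cells were sorted 4 days after the first injection. The sample descriptions give 2 doses and the study's methods 3. *Mx1-cre* is also active outside blood cells, so the host tissue of cKO cells can carry the deletion too, and no library came from mice without poly I:C.

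The study describes independent sets of LSK cells, without the number of mice in a set, so the p-values measure the spread between these libraries. Each library held 17571544 to 19894562 reads on genes, and Pearson's r of log2 values was 0.991 to 0.993 within groups and 0.974 to 0.977 between them. *Myh9* itself was 22.5 ± 0.495 FPKM (SD, n = 3) in CTRL and 18.7 ± 1.18 (SD, n = 3) in cKO, a log2 fold change of -0.26 with an adjusted p of 0.00642 in limma. Since the floxed segment is only exon 1 of *Myh9*, a value over the whole gene is a weak check of the deletion. The study checked *Myh9* mRNA in bone marrow by real-time PCR, and how complete the deletion was in these libraries was not tested. Of the sorting markers, *Kit* was 23.9 ± 0.454 and 21.5 ± 0.334 FPKM (SD, n = 3), called lower, and *Ly6a*, the gene of Sca1, 95.4 ± 1.87 and 89.5 ± 3.63 FPKM (SD, n = 3) in CTRL and cKO. Of the genes of lineage gate antigens, *Cd8a* had at most 2 reads in a library and *Cd3e* 0 in CTRL and 14 to 21 in cKO. *Cd4* had 22 to 27 reads in CTRL and 53 to 67 in cKO, and *Itgam* 79 to 125 and 57 to 76. *Ptprc* (CD45), listed for the gate antigen B220, was the 1 gene of the 5 that could be tested. It had a log2 fold change of -0.15 and was called lower, a call lost without any 1 library. A value over the whole gene does not single out B220. Without the filter on low values, 2 of the lineage gate genes were called higher and *Ptprc* was not called.

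Commitment to red cells and megakaryocytes is driven by the zinc finger factor GATA1, which works with its cofactor FOG1 (*Zfpm1*) and with a complex built on TAL1. GATA1 acts with KLF1, which binds CACCC boxes of red cell genes, and with the repressor GFI1B, whereas *Nfe2* encodes the large subunit of NF-E2, a factor of megakaryocytes and erythroblasts. Developing red cells take up iron through the transferrin receptor (*Tfrc*) and make carbonic anhydrases (*Car1*, *Car2*), which interconvert carbon dioxide and bicarbonate. *Ermap* encodes an erythroid membrane protein of the immunoglobulin superfamily, and *Cldn13* a claudin found in rodents. Low transcript levels of several of these genes can be read in multipotent progenitors before red cells form.

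Of the 10 genes, 9 rose in *Myh9*-deficient LSKs (limma, adjusted p under 0.05), against 19.9% of all genes tested that were called higher and 40.5% called in either direction. The other, *Nfe2*, was not called. No member was called lower with limma on log2(FPKM + 1), 1 (*Nfe2*) was lower at an unadjusted p under 0.05 and 1 with voom, against 20.6% of all genes called lower. *Cldn13* was the 1 member past 2-fold, whereas of all genes 1.43% passed 2-fold upwards, 0.701% downwards and 2.13% either way. The median log2 fold change of the members was 0.52, beside -0.0096 for all genes tested. In all 9 genes called higher the lowest cKO library lay above the highest CTRL library, as in 25.5% of all genes. Taken as a sum, the members held 731 to 736 FPKM in CTRL and 1154 to 1200 FPKM in cKO libraries. In a bulk sample, more cells of a type and more RNA per cell cannot be told apart.

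**Figure D1:**
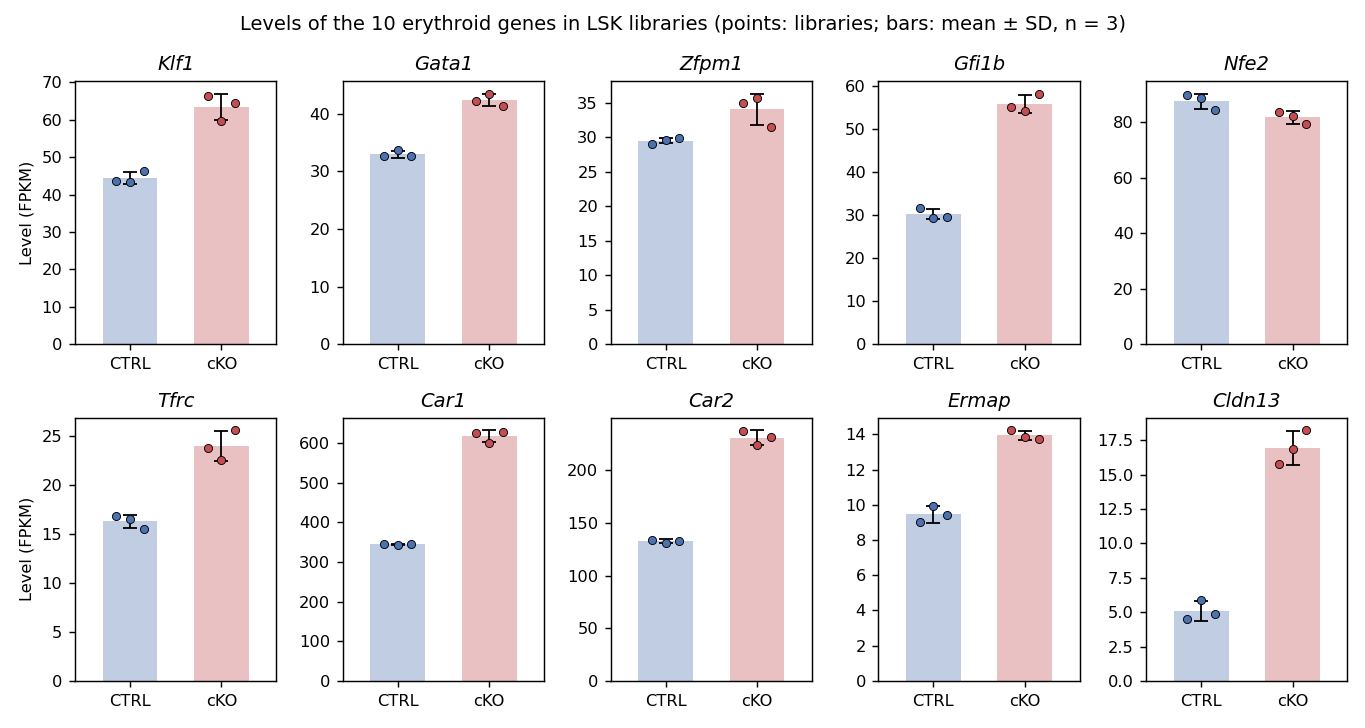
Levels of the 10 erythroid regulators and membrane genes in each library, in FPKM, with CTRL and cKO libraries as separate points and the group means marked. The cKO points lie above the CTRL points for 9 genes and below them for *Nfe2*.

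Promoter sequence was looked at because the factors among the members bind known letters. RefSeq (GRCm38.p6) promoters were given for 6 of the 10 members, and the 150 bases before each start were searched on both strands for the GATA motif (A or T, then GATA, then A or G), for the CACCC-type letters CCNCNCCC and for the NF-E2 motif (TGA and TCA with 1 base of any kind between them). GATA letters were found before *Klf1*, *Gfi1b* and *Ermap*, 3 of 6 members, and before 16.0% of 32851 promoters. CACCC-type letters, which many other KLF and SP factors share, were found before *Gata1*, *Gfi1b* and *Zfpm1*, and before 38.1% of all promoters. NF-E2 letters were found before none of the 6 and before 4.24% of all, and *Tfrc* had none of the motifs. The promoters of *Nfe2*, *Car1*, *Car2* and *Cldn13* were not analysed here. The 5 stretches with a match are printed 5′ to 3′ on the gene's strand, without bases that GENCODE M21 places in an exon, and capitals mark the matches. They lie at chr8:84901832-84901927 (*Klf1*, plus strand), chr4:119190012-119190145 (*Ermap*, minus strand), chr2:28621983-28622132 (*Gfi1b*, minus strand), chrX:7967911-7968060 (*Gata1*, minus strand) and chr8:122281991-122282140 (*Zfpm1*, plus strand).
*Klf1*: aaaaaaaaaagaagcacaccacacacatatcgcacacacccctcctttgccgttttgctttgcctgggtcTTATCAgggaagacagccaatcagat
*Ermap*: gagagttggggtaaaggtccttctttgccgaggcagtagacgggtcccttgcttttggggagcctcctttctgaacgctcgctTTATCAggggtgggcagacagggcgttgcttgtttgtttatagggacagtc
*Gfi1b*: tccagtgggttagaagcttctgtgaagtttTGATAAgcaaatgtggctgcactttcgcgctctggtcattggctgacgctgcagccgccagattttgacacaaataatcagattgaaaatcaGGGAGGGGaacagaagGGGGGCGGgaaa
*Gata1*: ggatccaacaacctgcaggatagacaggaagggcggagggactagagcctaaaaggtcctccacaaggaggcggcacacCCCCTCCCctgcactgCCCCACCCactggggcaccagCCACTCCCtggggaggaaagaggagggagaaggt
*Zfpm1*: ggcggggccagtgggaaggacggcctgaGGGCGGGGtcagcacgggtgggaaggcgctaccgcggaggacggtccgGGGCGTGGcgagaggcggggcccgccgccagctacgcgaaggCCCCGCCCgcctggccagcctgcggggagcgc
In *Klf1* the GATA letters began 80 bases before the RefSeq start, in *Ermap* 67 and in *Gfi1b* 120. The RefSeq starts of *Klf1* and *Ermap* lie inside the annotated genes. Of the bases searched, the 54 nearest that start in *Klf1* and the 16 nearest in *Ermap* are in an exon and not printed. The CACCC-type letters of *Gata1* began 71, 55 and 34 bases before a start that lies inside the annotated gene, whose upstream start was not searched. In *Gfi1b* they began 28 and 12 bases before the start and lay on the opposite strand. The 3 members with GATA letters had log2 fold changes of 0.50, 0.52 and 0.86 and the 3 searched without them 0.20, 0.35 and 0.53, ranges that overlap. A match is a string of letters and does not show that a factor binds there.

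*Gata1* (ENSMUSG00000031162, chromosome X, 7959260 to 7978071, minus strand of GRCm38, as for all coordinates of genes, 6 exons) was measured at 32.6, 33.7 and 32.7 FPKM in the CTRL libraries and at 42.2, 43.5 and 41.4 FPKM in the cKO libraries. Every cKO library was above every CTRL library, and the groups were each narrow. The mean went from 33.0 ± 0.620 to 42.4 ± 1.06 FPKM (SD, n = 3), a log2 fold change of 0.35 (SE 0.031, 95% interval 0.28 to 0.43, adjusted p = 0.000293). Because the gene is X-linked, *Xist* and 4 Y-linked genes were read. *Xist* had at most 1 read in any library, and the Y-linked genes were present in all 6. *Ddx3y* and *Uty* had log2 fold changes of -0.0033 and 0.0012, while *Kdm5d* was called lower (-0.25, adjusted p = 0.0233) and *Eif2s3y* higher (0.12, adjusted p = 0.0471).

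*Zfpm1* (ENSMUSG00000049577, chromosome 8, 122282141 to 122337251, plus strand, 10 exons), the gene of FOG1, was at 29.0, 29.6 and 29.9 FPKM in CTRL and at 34.9, 35.7 and 31.5 FPKM in cKO. The third cKO library lay close to the controls, although the groups did not overlap. The log2 fold change of 0.20 (SE 0.050, 95% interval 0.080 to 0.32, adjusted p = 0.0194) was the smallest among the 9 called members, and 2171 of the genes tested rose by more. The call was lost when a library was left out, with adjusted p of 0.0636 and 0.0534 without CTRL replicates 1 and 2, and 0.0633 and 0.0506 without cKO replicates 1 and 2. The log2 fold change was 0.13 once trends with GC content and length were removed. *Zfpm1* overlaps the annotated gene *Gm20388* on the same strand, which had 0 reads in each library.

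*Klf1* (ENSMUSG00000054191, chromosome 8, 84901928 to 84905291, plus strand, 3 exons) was at 43.6, 43.5 and 46.2 FPKM in CTRL and at 66.4, 59.6 and 64.4 FPKM in cKO. All cKO libraries stood clear of the controls. The mean rose from 44.4 ± 1.54 to 63.5 ± 3.51 FPKM (SD, n = 3), which is 1.43 times the control mean, with a log2 fold change of 0.50 (SE 0.047, adjusted p = 0.000381).

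*Gfi1b* (ENSMUSG00000026815, chromosome 2, 28609450 to 28621982, minus strand, 7 exons) showed the largest change among the regulators. Its values were 31.7, 29.4 and 29.7 FPKM in CTRL and 55.1, 54.2 and 58.3 FPKM in cKO. The groups were far apart relative to their spread, with means of 30.3 ± 1.26 and 55.9 ± 2.14 FPKM (SD, n = 3), a ratio of 1.85 and a log2 fold change of 0.86 (SE 0.042, adjusted p = 2.8e-05). Of all genes tested, 222 rose by more.

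*Nfe2* (ENSMUSG00000058794, chromosome 15, 103248212 to 103258403, minus strand, 3 exons in its principal transcript) went the other way from the other regulators. It was at 89.8, 88.7 and 84.4 FPKM in CTRL and at 83.8, 82.2 and 79.5 FPKM in cKO. The highest cKO library lay just under the lowest CTRL library, which is the case for 28.5% of all genes. The log2 fold change was -0.10 (SE 0.034, 95% interval -0.18 to -0.015) and the adjusted p 0.0614. *Nfe2* passed the threshold as lower without CTRL replicate 3 (adjusted p = 0.0365), and its adjusted p ranged from 0.0258 to 0.176 over the alternative settings.

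*Tfrc* (ENSMUSG00000022797, chromosome 16, 32608920 to 32632794, plus strand, 19 exons) was at 16.8, 16.5 and 15.5 FPKM in CTRL and at 23.7, 22.5 and 25.5 FPKM in cKO. The receptor, known as CD71, was thus higher in every cKO library, with means of 16.3 ± 0.676 and 23.9 ± 1.53 FPKM (SD, n = 3) and a log2 fold change of 0.53 (SE 0.054, adjusted p = 0.00055).

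*Car1* and *Car2* were the most abundant members and lie close together on chromosome 3, with *Car3* between them (*Car1*, ENSMUSG00000027556, 14766216 to 14808368, minus strand, 8 exons, and *Car2*, ENSMUSG00000027562, 14886273 to 14900770, plus strand, 7 exons). *Car1* was at 345, 343 and 345 FPKM in CTRL and at 626, 601 and 627 FPKM in cKO. *Car2* was at 134, 131 and 133 FPKM in CTRL and at 238, 224 and 231 FPKM in cKO. Both genes were almost level among the controls, and both stood far above them in all cKO libraries. *Car1* rose 1.80-fold by group means (log2 fold change 0.84, SE 0.024, adjusted p = 3.8e-06), and *Car2* rose 1.74-fold (0.79, SE 0.029, adjusted p = 8.82e-06). Together they made up most of the summed FPKM of the members, *Car1* with a gain of 274 FPKM and *Car2* with a gain of 98.2 FPKM. *Car1* overlaps the pseudogene *Gm16399*, which had 0 to 2 reads in a library.

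*Ermap* (ENSMUSG00000028644, chromosome 4, 119175457 to 119190011, minus strand, 13 exons) was at 9.02, 9.94 and 9.41 FPKM in CTRL and at 14.2, 13.8 and 13.8 FPKM in cKO. The groups were well apart, with a log2 fold change of 0.52 (SE 0.043, adjusted p = 0.000246) between means of 9.46 ± 0.463 and 13.9 ± 0.254 FPKM (SD, n = 3).

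*Cldn13* (ENSMUSG00000008843, chromosome 5, 134914249 to 134915526, minus strand, 2 exons) was the lowest member in the controls and the one with the largest rise. Its FPKM were 4.52, 5.90 and 4.83 in CTRL and 15.8, 16.9 and 18.2 in cKO, from 96, 111 and 99 reads and 315, 328 and 362 reads. With the fewest reads of the members it also had the widest spread, 14.2% of the mean among the controls, and the gap between groups was several times that spread. The mean went from 5.09 ± 0.723 to 17.0 ± 1.24 FPKM (SD, n = 3), 3.33 times the control mean. On the log2(FPKM + 1) scale, which understates the change of low genes, the difference was 1.56 (SE 0.093, 95% interval 1.34 to 1.79, adjusted p = 6.01e-05), and 63 of the genes tested rose by more.

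**Figure D2:**
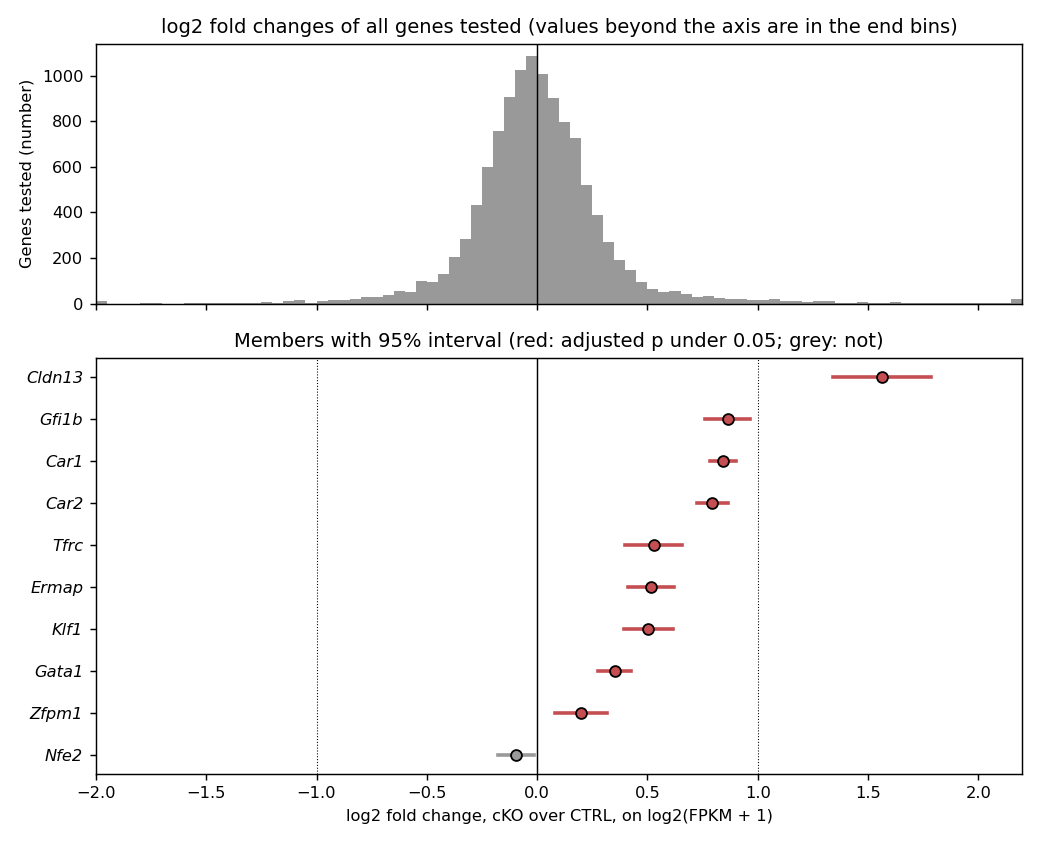
Fitted log2 fold changes of the 10 members (cKO minus CTRL, log2(FPKM + 1)), with 95% intervals from limma. *Cldn13* stands apart at 1.56, *Gfi1b*, *Car1* and *Car2* follow between 0.79 and 0.86, and *Nfe2* is the only one of the 10 members below 0, at -0.10.

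The order of the members by level, per kilobase, was partly different in the groups. *Car1*, *Car2*, *Nfe2* and *Klf1* came first in that order in both. *Gata1* was above *Gfi1b* in every CTRL library, and *Gfi1b* was above *Gata1* in every cKO library. *Gfi1b* and *Zfpm1* overlapped in the controls, at 29.4 to 31.7 and 29.0 to 29.9 FPKM, and were apart in cKO. *Ermap* and *Cldn13* exchanged places at the low end, since *Cldn13* was below *Ermap* in every CTRL library and above it in every cKO library. Relative to each gene's control mean, the median over the members was 1.50, 1.42 and 1.51 in the cKO libraries, and the second of them had the lowest value of its group for 5 of the 10 genes.

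Ratios within a library do not depend on its scaling, and 7 were compared, chosen with values of these data known. With 3 libraries a group the smallest two-sided p of an exact permutation test is 0.1, so none could pass the threshold. *Gfi1b* over its paralog *Gfi1*, which acts in myeloid and stem cells, was 1.00 ± 0.050 in CTRL and 2.02 ± 0.110 in cKO (SD, n = 3, exact permutation p = 0.1, adjusted over the 7 ratios 0.117). *Gata1* over *Spi1*, the gene of the myeloid factor PU.1, was 0.308 ± 0.00642 and 0.501 ± 0.00519 (SD, n = 3, exact permutation p = 0.1). *Gata1* over *Gata2*, which precedes it in progenitors, was 0.937 ± 0.0145 and 1.06 ± 0.0136 (SD, n = 3, exact permutation p = 0.1). In each of these pairs all cKO libraries were above all CTRL libraries. The same held for *Gata1* over *Zfpm1* (means of 1.12 and 1.25) and *Klf1* over *Nfe2* (0.508 and 0.776). Between the carbonic anhydrase genes, *Car1* over *Car2* differed little, 2.60 ± 0.0247 and 2.68 ± 0.0408 (SD, n = 3, exact permutation p = 0.1). *Klf1* over *Gata1* overlapped between the groups, at 1.35 ± 0.0627 and 1.50 ± 0.113 (SD, n = 3, exact permutation p = 0.2).

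**Figure D3:**
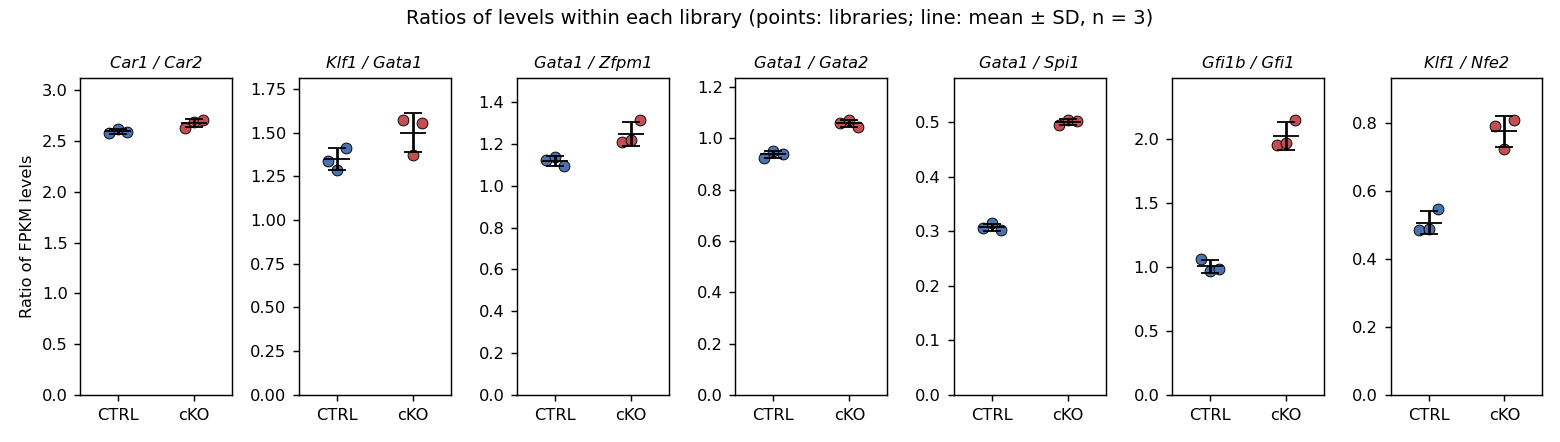
Ratios of FPKM between pairs of genes in each library, CTRL and cKO as separate points. The cKO points lie above the CTRL points in 6 of the 7 ratios, by the widest margin for *Gfi1b* over *Gfi1* (2.02 against 1.00), and overlap them for *Klf1* over *Gata1*.

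The genes that work with the members were read from 7 lists of pathway partners and relatives, 79 of whose 90 genes were tested. Of these, 22 were called higher, 24 lower and 33 neither, with a median log2 fold change of -0.029, next to 19.9% and 20.6% of all genes. Among 11 partners of GATA1 and TAL1, 4 were called higher and 0 lower in limma (5 and 1 at an unadjusted p under 0.05, 5 and 0 with voom), and 1 was lower without cKO replicate 1. The 4 were *Gata2* (35.2 to 40.0 FPKM), *Ssbp2*, *Lmo2* (294 to 323 FPKM) and *Ldb1*, with log2 fold changes of 0.13 to 0.18, all below that of *Zfpm1*. Of 14 genes listed as partners of GFI1B and FOG1, which are corepressors and the paralog gene *Gfi1*, 2 were called higher, 3 lower and 9 neither. *Hdac1* rose by 0.23 and *Rbbp7* by 0.11, whereas *Rcor1*, a scaffold for the demethylase that GFI1B recruits, fell by 0.24, *Rbbp4* by 0.22 and *Gfi1* by 0.12 on the log2 scale.

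Around *Nfe2*, 4 of 6 tested partners and relatives were called lower and 0 higher in limma (4 and 0 at an unadjusted p under 0.05, 4 and 0 with voom). The small MAF gene *Maff* went from 6.38 ± 0.498 to 2.39 ± 0.525 FPKM (SD, n = 3, log2 fold change -1.13). *Bach1*, a repressor that competes for the same sites, *Nfe2l1* and *Mafk* had log2 fold changes of -0.37, -0.24 and -0.20. In signalling from the erythropoietin receptor, 2 of 8 tested genes were higher (1 without CTRL replicate 1 or 3) and 5 lower. The receptor gene *Epor* was at 16.0, 15.5 and 16.1 FPKM in CTRL and 24.9, 25.3 and 23.6 FPKM in cKO, without overlap (log2 fold change 0.60, adjusted p = 6.81e-05). *Bcl2l1*, a survival gene, rose by 0.31. The downstream kinase gene *Pim1* went from 98.5 to 57.2 FPKM (-0.77), and *Stat5b*, *Ptpn6* and *Jak2* had log2 fold changes of -0.29, -0.21 and -0.18. The genes of this list have different parts in the signal, which was not itself measured. Among 9 other erythroid regulators 1 was higher (*E2f4*, 0.27) and 4 were lower (2 without CTRL replicate 2), *E2f2* (-0.49), *Foxo3* (-0.30), *Nr3c1* (-0.21) and *Zbtb7a* (-0.14).

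Red cell membrane and skeleton genes, the company of *Ermap*, were called higher in 7 and lower in 4 of 17 tested. The Rh-associated glycoprotein gene *Rhag* was at 5.76, 5.34 and 5.59 FPKM in CTRL and 14.8, 13.1 and 14.7 FPKM in cKO, a log2 fold change of 1.21. *Rhd* and *Add2* had values of 0.87 and 0.84, while *Stom* (stomatin, -0.57), *Mpp1* (-0.24), *Add1* (-0.24) and *Gypc* (-0.21) were lower. Iron genes beside *Tfrc* were split, with 6 of 14 higher, among them *Slc40a1* (ferroportin, 0.49), *Slc11a2* (0.21), *Fth1* (0.16) and *Aco1* (0.15), and 4 lower, *Hfe* (-0.21), *Slc25a37* (-0.20), *Ncoa4* (-0.17) and *Ftl1* (-0.12). Without CTRL replicate 2 the higher iron genes numbered 3, and without any 1 CTRL replicate or cKO replicate 3 the lower ones numbered 2. Relatives of the carbonic anhydrases and of *Cldn13* were mostly too low to test. Of 14 other carbonic anhydrases 3 were tested, and *Car3* rose from 2.21 to 2.97 FPKM, while *Car9* and *Car13*, not called, each had a log2 fold change of -0.19 without overlap between groups. The median of the 3 was -0.19. Among 22 other claudins listed there, 2 were tested, and *Cldn15* went from 15.6 ± 0.384 to 8.36 ± 0.910 FPKM (SD, n = 3), a log2 fold change of -0.83, opposite in sign to *Cldn13*.

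**Figure D4:**
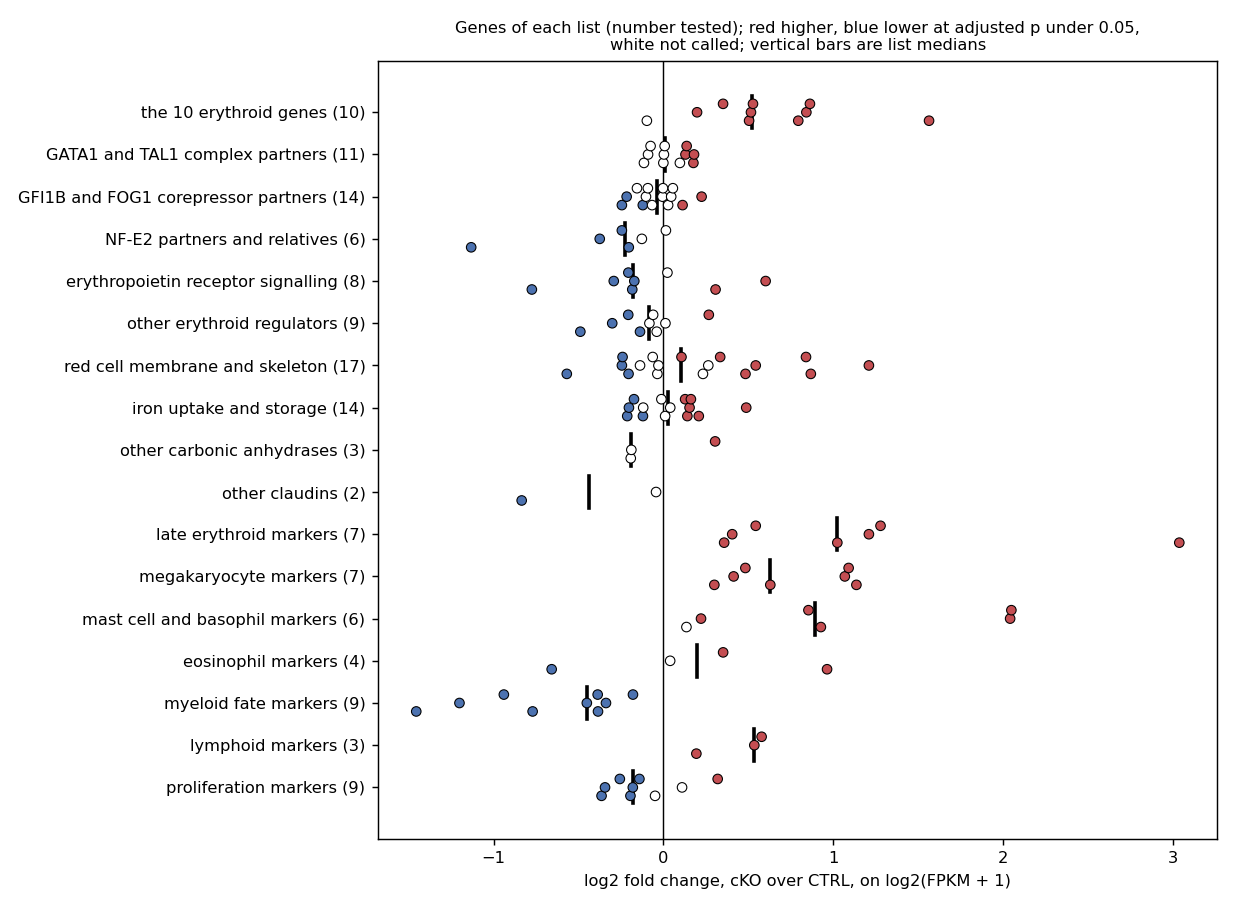
Log2 fold changes of the genes tested in the members and in the lists of partners, relatives and markers, 1 point per gene with the list's median marked. The members have a median of 0.52, the late erythroid markers 1.02, the myeloid fate markers -0.45, and the 7 lists of pathway partners and relatives have medians from -0.22 to 0.11.

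Markers of other cell types moved with the members, and their part in the members' changes was not tested. Late erythroid markers were higher in 7 of 7 tested, of 11 listed in the deposit, and their summed level was 30.6 to 31.7 FPKM in CTRL and 78.1 to 90.1 FPKM in cKO. Most of that rise was *Hbb-bt*, the adult beta globin gene, at 3.08, 3.71 and 4.15 FPKM in CTRL and 37.1, 44.5 and 30.6 FPKM in cKO. The globin genes have near-identical copies, so that their single values are uncertain. *Hba-a1* and *Hbb-bs* reached the minimum mean only through the cKO libraries, so their calls are no support for a rise of the list. *Hemgn* went from 9.56 to 12.5 FPKM, whereas genes that define later red cells were near 0 in both groups, with 0 to 8 reads for *Slc4a1* (band 3), 0 to 5 for *Alas2* and 6 to 20 for *Epb42* in a library. *Hba-a2*, not tested, had 2 to 3 reads in CTRL and 0 to 1 in cKO. Without the filter on low values, 1 late erythroid marker was called lower.

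Markers of megakaryocytes, whose formation also needs GATA1, FOG1 and GFI1B, were higher in 7 of 7 tested of 12 listed. Their summed level was 78.3 to 83.4 FPKM in CTRL and 158 to 162 FPKM in cKO. *Pf4* went from 31.9 to 68.1, *Itga2b* from 17.0 to 37.3 and *Gp9* from 8.88 to 20.7 FPKM, while *Gp1bb* had 0 reads in each library and *Gp6* at most 2. Also not tested, *Ppbp* had 1 to 7 reads in CTRL and 17 to 29 in cKO. *Vwf* had 133 to 173 and 162 to 215 reads, and *Gp1ba* 43 to 53 and 48 to 54. Mast cell and basophil markers were higher in 5 of 6 tested of 8 listed, with sums of 90.3 to 102 FPKM in CTRL and 149 to 159 FPKM in cKO. *Prss34* went from 5.75 to 26.8, *Mcpt8* from 21.6 to 42.0 and *Cpa3* from 54.9 to 64.1 FPKM. Not tested were *Mcpt4*, with at most 2 reads in a library, and *Tpsb2*, with 0 reads in CTRL and 5 to 6 in cKO. Eosinophil markers were higher in 2 (1 without CTRL replicate 1, cKO replicate 1 or cKO replicate 3) and lower in 1 of 4 tested (*Prg2* 0.96, *Siglecf* -0.66), and lymphoid markers higher in 3 of 3 tested of 8 listed (*Flt3* 0.58, *Cd79a* 0.54, *Dntt* 0.19). Of these, *Cma1*, *Fcer1a*, *Epx* and *Cd79a* reached the minimum mean only through the cKO libraries, so their counts are no support for a rise of their lists. Myeloid fate markers went the other way in 9 of 9, from a sum of 10494 to 10557 FPKM in CTRL to 5904 to 6005 FPKM in cKO, with *Mpo* at -0.77, *Elane* at -1.20 and *Spi1* at -0.34 on the log2 scale. Proliferation markers were lower in 6 of 9 (*Top2a* -0.36, *Mcm6* -0.34) and higher in 1 (*Ccnb1*, 0.32), or in 2 without cKO replicate 2.

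**Figure D5:**
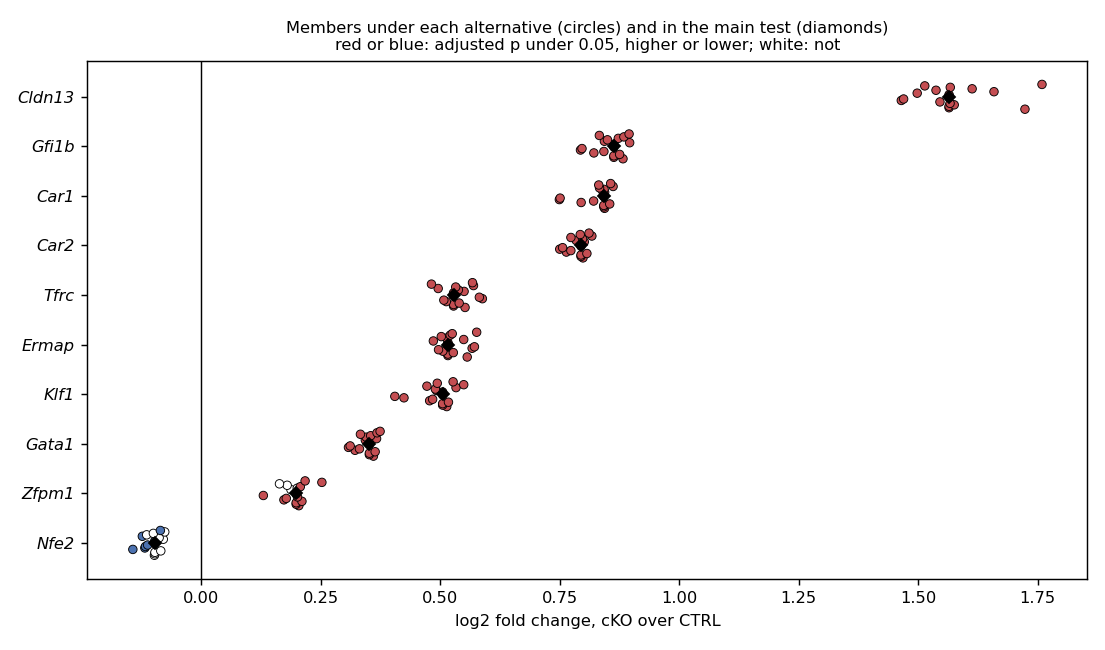
Log2 fold changes of the 10 members under the main setting and each alternative, 1 point per setting. No member changed sign, *Cldn13* remained highest, and *Nfe2* stayed a little below 0 in each setting drawn.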

How the data were processed

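The measurements were RNA-seq libraries of sorted LSK cells, 3 CTRL and 3 cKO, grouped by their sample titles. The authors deposited FPKM values with gene lengths, 1 column a library. The submitters' processing notes name HISAT2 2.0.5 and mm10, and the counting program is not given in the sources used here. Multiplied by gene length, 100% of the values came out as whole reads of a step particular to the library (tolerance 0.02). Depth was 17571544 to 19894562 reads, so that 3 reads in a gene of 1 kb equal 0.151 to 0.170 FPKM. Molecular identifiers were not used.

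A mean of 1 FPKM was required, and tests were made on log2(FPKM + 1) with limma 3.58.1 (lmFit, eBayes with trend, R 4.3.3). Tests were two-sided, and p-values were adjusted over 11552 genes by Benjamini-Hochberg. Calls were at an adjusted p under 0.05, and past 2-fold at an unadjusted p under 0.05. The script was tested on simulated data. The members, the 18 lists and the ratios were chosen with earlier results of these data known. Named genes were *Myh9*, the members, the sorting markers, at most 4 genes a direction of each list with the largest changes among those called, and the 3 most abundant markers of each other cell type. Other genes named from the lists were chosen after their values were seen. They are the lineage gate genes, genes near 0 or not tested, *Spi1*, *Car9* and *Car13*. Coordinates of all 10 members were the same in GENCODE M21. Ratios used exact permutation tests. The values of 1 gene of the lists are not reported here. Python 3.11.15, pandas 2.3.3, numpy 2.4.6, scipy 1.17.1 and matplotlib 3.10.9 were used. Other pseudocounts, filters, scalings, moderation, voom on recovered reads, a replicate block, leaving out each library and, chosen after seeing the data, removal of GC and length trends together were alternatives.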

Additional observations from a re-analysis of the deposited data

How the results depend on the processing

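Of the 10 members, 8 to 9 were called higher in the 18 alternative fits, 8 to 9 of them when a library was left out, and 1 was past 2-fold in each. *Zfpm1* was the member that lost its call, also without moderation of the variance (adjusted p = 0.0653). The count of members called lower was 1 (*Nfe2*) in place of 0 with quantile normalization, rescaling to the same sum (TPM), removal of the length trend, removal of GC and length trends together, the replicate block and voom, and 0 to 1 with a library left out. The cause was not tested. The median log2 fold change of the members was 0.58 after removal of the length trend and 0.58 after that of GC and length trends, 0.57 with voom, and 0.51 to 0.56 with a library left out. Genes past 2-fold upwards numbered 92 with a mean of at least 5 FPKM, which tests fewer genes, 266 with voom, and 161 to 182 with a library left out, against 165. With a library left out, 1791 to 2017 of all genes were higher and 1743 to 2064 lower. No member changed direction. The median log2 fold change of all genes, close to 0 throughout, ranged from -0.028 to 0.0073, and the balance of calls turned to more higher than lower in several settings, such as 2195 and 1971 without a filter on low values and 2434 and 2239 with the median of ratios. Of 648 counts for the lists beside the members, 51 were past 1.5 times their main value.

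Replicate numbers did not pair the libraries, since the deviations of same-numbered libraries correlated at -0.0046, -0.011 and -0.026. With the replicate block 9 members were higher and 1 was lower, and of all genes 2063 were higher and 2044 lower. Genes under the minimum mean, the named genes near 0 among them, were not tested.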
